A study of Homo sapiens with 6 samples.

Results

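The genes examined here, 9 in all, encode proteins reported to act with the receptor Ror1, namely CTTN, HCLS1, ARHGEF1, ARHGEF2, DOCK1, DOCK2, SRC, YWHAZ and BMI1. They were chosen by name, each symbol matched exactly 1 Ensembl identifier, and together they make up 9 of the 57445 rows of the deposited table. The cells were MDA-MB-231, a line long kept in culture from a triple-negative breast cancer, and the study asked what a stable knockdown of Ror1 changes in them. The control cells (shCTL, 3 libraries) carried a pGIPZ lentiviral vector with a non-silencing shRNA, and the knockdown cells (shRor1, 3 libraries) carried the same type of vector with an shRNA against ROR1. Both groups were selected with puromycin. The sources used here describe the control in different ways, since the sample labels speak of an empty vector and the column headers of the control also hold the word DMSO, so a difference in solvent between the groups cannot be told apart from the knockdown. Whether the 3 libraries of a group came from separate cultures is not given in the sources used here, so the p-values measure only the spread between these libraries. The values are TPM, a transcript abundance scaled for gene length that sums to 1000000 in each library. TPM keep no read depth. The paper lists mapped reads for each replicate, but they were not used here, so the counting error behind a value was not estimated. The columns carry no replicate number, and libraries are named here by their order within the group.

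Ror1 is a transmembrane receptor tyrosine kinase-like protein that binds Wnt5a and signals without β-catenin. Proteins reported to act with it have been described mainly in leukaemia and carcinoma cells. Cortactin (CTTN) and its blood cell homologue HS1 (HCLS1) bind branched actin filaments and are phosphorylated by tyrosine kinases. ARHGEF1 and ARHGEF2 load RhoA with GTP, while DOCK1 and DOCK2 do the same for Rac. SRC is a tyrosine kinase that phosphorylates cortactin and many adhesion proteins. YWHAZ encodes 14-3-3ζ, an adaptor that binds phosphorylated serine and threonine. BMI1 is a subunit of Polycomb repressive complex 1, which ubiquitinates histone H2A and is tied to self-renewal. Several of the reported links to Ror1 depend on phosphorylation or on binding, which RNA does not measure.

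The knockdown and the cell type were checked first. ROR1 itself, the target of the shRNA, stood at 15.42, 13.49 and 20.56 TPM in control cells, against 9.34, 11.93 and 14.85 TPM after knockdown. The shRor1 mean was thus 73% of the shCTL mean, the groups overlapped, and the difference did not pass the test (log2 fold change -0.43, computed here and throughout from log2(TPM + 1), adjusted p = 0.984 from limma by the Benjamini-Hochberg method over all genes tested). The value ran from -0.58 without the third shRor1 library to -0.26 without the third shCTL library, and was -0.27 without the first shRor1 library. With quantile normalization it was -0.49 (unadjusted p = 0.015 and adjusted p = 0.999 from limma). With median ratio scaling it was -0.50 (unadjusted p = 0.017 and adjusted p = 0.995 from limma), and with array weights -0.35. A mean ROR1 RNA level of 73% of the control limits the comparison as a model of ROR1 transcript loss. RNA does not measure the protein. From Western blots the paper reports a stable knockdown of Ror1, with lower RhoA levels and less JNK phosphorylation. ROR2 was at or below 0.01 TPM in all 6 libraries. WNT5A, the ligand, averaged 4.96 ± 0.43 TPM in control and 5.88 ± 0.58 TPM in knockdown cells (SD, n = 3 each). The mesenchymal marker VIM lay between 2399 and 2920 TPM, while ESR1 and PGR did not exceed 0.21 and 0.01 TPM. EPCAM, listed as a marker near 0, was found at 12.58 to 15.80 TPM. The epithelial cadherin CDH1, also listed as near 0, had 1.01, 0.80 and 1.22 TPM in shCTL and 1.36, 1.41 and 1.47 TPM in shRor1. Its groups did not overlap (log2 fold change 0.27, limma, adjusted p = 0.984), like those of 7.78% of all tested genes (6.48% with shRor1 higher). These levels lie near 1 TPM, and the part of CDH1 in the results was not tested. Of 9 haematopoietic markers, only VAV1, at 4.21 to 5.80 TPM, passed the expression filter. The 9 summed to between 5.25 and 6.57 TPM in shCTL and between 5.45 and 6.71 TPM in shRor1, with PTPRC at 0.07 to 0.39 TPM.

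The 9 genes covered a wide range of levels in control cells. By mean TPM in shCTL the order was YWHAZ (1122), CTTN (177), ARHGEF2 (96.9), BMI1 (81.7), ARHGEF1 (79.1), SRC (32.4), DOCK1 (20.0), DOCK2 (0.78) and HCLS1 (0.65). TPM are corrected for length, so these levels can be set beside each other. Neighbours in this order were apart in each of the 3 shCTL libraries for YWHAZ, CTTN, SRC and DOCK1. The ranges of ARHGEF2, BMI1 and ARHGEF1 ran into each other in shCTL, and so did those of DOCK2 and HCLS1. Among the 16554 genes that reached 1 TPM in 3 or more libraries, YWHAZ stood at percentile 99.2 of the mean level and CTTN at percentile 94.8, whereas DOCK1 stood at percentile 60.0. HCLS1 reached 1 TPM in 1 library and DOCK2 in none, and both therefore failed this filter. The other 7 genes were tested.

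**Figure D1:**
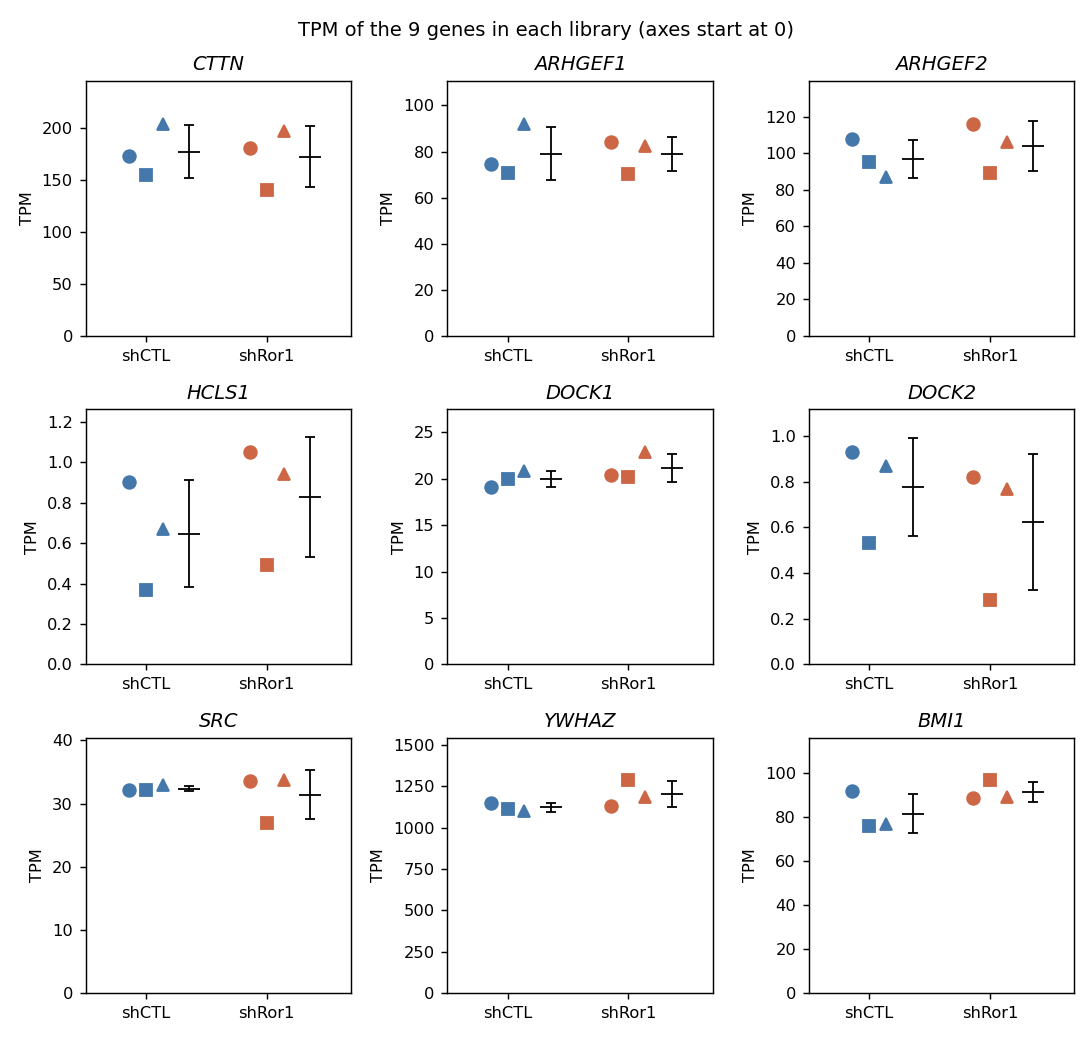
TPM (vertical axes, each starting at 0) of the 9 genes in the shCTL libraries (blue) and the shRor1 libraries (orange). Circle, square and triangle mark the first, the second and the third library of a group in the order of the table, and the bar beside them gives mean and SD (n = 3). The groups overlap for each of the 9 genes, and HCLS1 and DOCK2 stay near or below 1 TPM.

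No difference between shCTL and shRor1 passed the test in the 7 tested genes. Limma called 0 of the 7 at an adjusted p below 0.05, and also 0 of all 16554 genes (0% called). At an unadjusted p below 0.05 there were 0 of the 7, against 472 of 16554 genes (2.85%). In 5 of the 7 the fold change was above 0 and in 2 below 0, where 67% of all tested genes lay above 0. The median log2 fold change was 0.08 over the 7 genes and 0.05 over all genes tested. No member had all libraries of a group above or below those of the other, which was the case for 7.78% of the tested genes (6.48% with shRor1 higher). The 95% intervals of the 7 log2 fold changes all lay between -0.39 and 0.38. In these bulk samples fewer cells with a transcript and less of it per cell cannot be told apart.

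**Figure D2:**
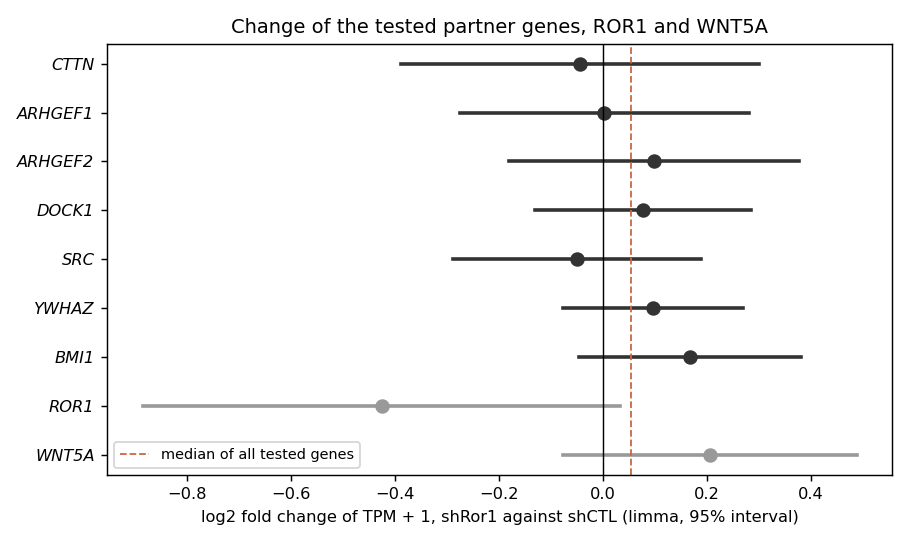
Log2 fold change of TPM + 1 in shRor1 against shCTL (horizontal axis) with 95% intervals from limma for the 7 tested partner genes (dark) and for ROR1 and WNT5A (grey). The solid line marks 0 and the dashed line the median of all 16554 tested genes (0.05). Each interval includes 0.

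Among the actin-binding partners, CTTN and HCLS1 form a pair of homologues with very unequal levels in MDA-MB-231 cells. CTTN (ENSG00000085733.11, GRCh37 chromosome 11 from 70244510 to 70282690, plus strand, 18 exons in its canonical transcript) had 172.95, 154.01 and 203.82 TPM in shCTL. In shRor1 it had 180.18, 139.98 and 196.36 TPM. The third shCTL library was the highest and the second shRor1 library the lowest, and the groups overlapped throughout. The means were 177 ± 25.1 and 172 ± 29.0 TPM (SD, n = 3 each), with a log2 fold change of -0.04 (95% interval -0.39 to 0.30, adjusted p = 0.987 from limma). Its sign depended on 1 library, since it was 0.10 without the second shRor1 library and 0.06 without the third shCTL library.

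HCLS1 (ENSG00000180353.6, chromosome 3 from 121350246 to 121379774, minus strand) had 0.90, 0.37 and 0.67 TPM in shCTL and 1.05, 0.49 and 0.94 TPM in shRor1. The second library of each group was the lowest, and the groups overlapped (exact permutation test on TPM, two-sided p = 0.5, where 3 libraries against 3 cannot go below 0.1). Of the TPM of both homologues together, CTTN took from 99.42% to 99.76% in the 6 libraries. The genes around cortactin were measured through a list of 15 that encode subunits and activators of the Arp2/3 complex, which nucleates branched actin. All 15 were tested, 9 were above 0 and 6 below, with a median log2 fold change of 0.02. None passed the test at an adjusted or an unadjusted p of 0.05. Their levels ran from WASF3, at 3.97 ± 0.13 TPM in shCTL (SD, n = 3), to ARPC3, at 451 ± 21.3 TPM (SD, n = 3). WASL, an activator of the complex, had the largest difference of the list (log2 fold change 0.16, adjusted p = 0.984 from limma).

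The RhoA exchange factors were expressed at similar levels. ARHGEF1 (ENSG00000076928.13, chromosome 19 from 42387240 to 42434302, plus strand) had 74.38, 70.64 and 92.14 TPM in shCTL and 84.04, 70.32 and 82.49 TPM in shRor1. The highest value was in the control and the 2 lowest were the second library of each group. The means differed by less than 1 TPM (79.1 ± 11.5 against 79.0 ± 7.51 TPM, SD, n = 3 each), and the log2 fold change was 0.00 (95% interval -0.27 to 0.28, adjusted p = 0.997 from limma). ARHGEF2 (ENSG00000116584.12, chromosome 1 from 155916642 to 155976861, minus strand), which encodes the microtubule-bound factor GEF-H1, had 108.04, 95.53 and 87.19 TPM in shCTL. In shRor1 it had 116.40, 89.18 and 106.51 TPM. The first library was the highest of each group, and the groups overlapped (log2 fold change 0.10, 95% interval -0.18 to 0.38, adjusted p = 0.984 from limma). This value was 0.01 without the first shRor1 library and 0.20 without the second.

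ARHGEF2 made up 55.1% ± 5.69 of the TPM of both factors in shCTL and 56.8% ± 1.14 in shRor1 (SD, n = 3 each). The third shCTL library stood apart with 48.6%, and it was the only one in which ARHGEF1 lay above ARHGEF2.

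The Rac exchange factors again split into an expressed homologue and an almost silent one. DOCK1 (ENSG00000150760.8, chromosome 10 from 128593978 to 129250781, plus strand, 52 exons) had 19.12, 19.93 and 20.83 TPM in shCTL and 20.39, 20.14 and 22.87 TPM in shRor1. Of the 3 shRor1 values, 2 lay inside the control range and the last above it. The spread was small, with 20.0 ± 0.86 against 21.1 ± 1.51 TPM (SD, n = 3 each) and a log2 fold change of 0.08 (95% interval -0.13 to 0.29, adjusted p = 0.984 from limma). The DOCK1 value was 0.00055 with median ratio scaling, 0.021 with quantile normalization, 0.048 without the first shCTL library and 0.022 without the third shRor1 library. Without the third shCTL library its groups did not overlap, like those of 22.1% of all tested genes. DOCK2 (ENSG00000134516.11, chromosome 5 from 169064272 to 169510386, plus strand), which drives migration of lymphocytes, had 0.93, 0.53 and 0.87 TPM in shCTL and 0.82, 0.28 and 0.77 TPM in shRor1. As for HCLS1, the second library of each group was the lowest (exact permutation test on TPM, two-sided p = 0.5).

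DOCK1 took from 95.4% to 98.6% of the TPM of DOCK1 and DOCK2. Within the family of 11 DOCK genes its share was 17.3% ± 0.08 in shCTL and 16.7% ± 0.62 in shRor1 (SD, n = 3 each), behind DOCK5, which had 27.1 ± 3.26 TPM in shCTL. In shRor1 the mean of DOCK9 (23.1 TPM) also lay above that of DOCK1. INSYN2B, which lies within the span of DOCK2 on the opposite strand and shares 0 bases with its exons, was named after its values were seen. It had 12.89, 5.09 and 8.49 TPM in shCTL and 14.82, 3.91 and 6.38 TPM in shRor1, more than its host in every library and lowest in the same library of each group. Among the 19 genes of the wider list of DOCK factors, their ELMO partners, CRK adaptors and Rac or Cdc42, 17 were tested. Of these, 14 were above 0 and 3 below, with a median log2 fold change of 0.08, and 0 passed at an adjusted or unadjusted p of 0.05. RAC1 had the highest level, 307 ± 8.80 TPM in shCTL (SD, n = 3), DOCK3 the lowest, 0.46 ± 0.09 TPM (SD, n = 3), and DOCK9 the largest difference (log2 fold change 0.22, adjusted p = 0.984 from limma). RAC2, the Rac of blood cells and a target of DOCK2, was at 120.20 to 136.72 TPM in the 6 libraries, although DOCK2 stayed below 1 TPM.

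The RefSeq promoter sequences (GRCh38.p14) of 6 of the 9 genes were read to set the letters of genes at high and low levels side by side: ARHGEF1, ARHGEF2, BMI1, DOCK1, DOCK2 and HCLS1. In the 250 bases before the start, ARHGEF1 and DOCK1 each held 37 CpG and BMI1 held 35, where the median of 27305 promoters was 11. DOCK2 held 12, and HCLS1 and ARHGEF2 held 2 each, with fewer in 15.4% of all promoters. DOCK1, at 20.0 TPM, and DOCK2, at 0.78 TPM, thus differed in CpG. HCLS1, at 0.65 TPM, and ARHGEF2, at 96.9 TPM, had the same number, and no relation between CpG and level was tested. The last 120 bases before the start are shown for these 4 genes, 5′ to 3′ on the strand of the gene, with CpG in capitals.
DOCK1: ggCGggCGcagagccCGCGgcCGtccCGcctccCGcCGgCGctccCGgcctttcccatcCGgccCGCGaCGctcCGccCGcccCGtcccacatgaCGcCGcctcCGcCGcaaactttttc
DOCK2: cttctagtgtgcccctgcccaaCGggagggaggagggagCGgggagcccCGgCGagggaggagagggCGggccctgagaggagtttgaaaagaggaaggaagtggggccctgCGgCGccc
ARHGEF2: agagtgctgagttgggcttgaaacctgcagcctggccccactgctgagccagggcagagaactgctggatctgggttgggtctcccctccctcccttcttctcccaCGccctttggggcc
HCLS1: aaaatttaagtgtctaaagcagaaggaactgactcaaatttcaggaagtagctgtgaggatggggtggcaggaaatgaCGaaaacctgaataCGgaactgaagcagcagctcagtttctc
These stretches hold 21, 7, 1 and 2 CpG in this order.

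Short words were then searched on both strands of the 250 bases. The GC box GGGCGG, which itself contains a CpG, was found in ARHGEF1, DOCK1, DOCK2 and BMI1 and in 42.3% of all promoters. The CCAAT word was found in ARHGEF2 and in 33% of all promoters. The TATAAA word (11.1% of all promoters) and GAGGAAGT, a word bound by the blood cell factor encoded by SPI1 (2.13%), were found in none of the 6. A match is a description of letters only, and the lack of one says only that these letters are not in this window. Only 1 RefSeq start, the first listed, was read for each gene. Other annotated starts were not read, and the start used in these cells may be another.

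SRC (ENSG00000197122.7, chromosome 20 from 35973088 to 36034453, plus strand) was nearly constant in the control, with 32.11, 32.09 and 32.91 TPM. In shRor1 it had 33.60, 26.93 and 33.65 TPM, so that 2 libraries lay above all controls and the second lay below them. The means were 32.4 ± 0.47 and 31.4 ± 3.87 TPM (SD, n = 3 each), with a log2 fold change of -0.05 (95% interval -0.29 to 0.19, adjusted p = 0.986 from limma). Without the second shRor1 library it was 0.05, and the groups then no longer overlapped, as was the case for 14.2% of all tested genes. Of 8 Src family kinases only FYN and YES1 were more abundant than SRC, which took 21.1% ± 1.19 of their TPM in shCTL and 19.7% ± 1.85 in shRor1 (SD, n = 3 each, exact permutation test, two-sided p = 0.4). FYN had 56.2 ± 10.6 TPM and YES1 48.5 ± 1.12 TPM in shCTL (SD, n = 3 each). The blood cell members LCK, FGR and BLK stayed below 1 TPM on average.

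In the list of 11 further Src family kinases and regulators, 7 were tested, 5 above 0 and 2 below, with a median log2 fold change of 0.07 and 0 at an adjusted or unadjusted p of 0.05. Its highest level belonged to PTK2, the focal adhesion kinase, at 135 ± 15.1 TPM in shCTL (SD, n = 3). Its lowest was FGR, at 0.02 ± 0.02 TPM (SD, n = 3), and the largest difference was that of the kinase FRK (log2 fold change 0.22, adjusted p = 0.984 from limma). CSK, which inhibits Src kinases, had 84.2 ± 2.26 TPM in shCTL and 82.0 ± 13.8 TPM in shRor1 (SD, n = 3 each).

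YWHAZ (ENSG00000164924.13, chromosome 8 from 101928751 to 101965616, minus strand) was the most abundant partner, with 1150.73, 1112.28 and 1102.19 TPM in shCTL. In shRor1 it had 1130.85, 1285.31 and 1186.66 TPM. The second and the third shRor1 libraries lay above all controls, and the first fell inside the control range. The means were 1122 ± 25.6 and 1201 ± 78.2 TPM (SD, n = 3 each), with a log2 fold change of 0.10 (95% interval -0.08 to 0.27, adjusted p = 0.984 from limma). It was 0.05 without the second shRor1 library and 0.02 with median ratio scaling. Without the first shRor1 library it was 0.14, and with quantile normalization 0.16. Its groups no longer overlapped without the first shCTL library or without the first shRor1 library, when 13% and 29.3% of all tested genes did not overlap. Processed pseudogenes of YWHAZ can take reads from it, and those in the table held 0.62% to 0.92% of the TPM of gene and pseudogenes together. These TPM were estimated after shared reads had been divided, and how many reads were shared was not tested. With the pseudogenes added to YWHAZ the log2 fold change was again 0.10, an alternative chosen after the data were seen.

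Since a share within a family does not depend on the scaling of the library, the 14-3-3 genes were also compared in this way. YWHAZ took 32.23%, 31.87% and 31.94% of the TPM of the 7 genes in shCTL and 32.29%, 33.79% and 33.25% in shRor1. The groups did not overlap, by a margin of less than 0.1 percentage points, and the mean share was 1.10 points higher in shRor1 (exact two-sided permutation p = 0.1, the lower limit of this design, and 0.629 after Benjamini-Hochberg adjustment over 11 shares). It was the only 1 of the 11 shares compared without overlap. The other 6 genes of the family were all tested, with 3 above 0 and 3 below, a median log2 fold change of 0.00 and 0 at an adjusted or unadjusted p of 0.05. YWHAE followed YWHAZ in level, with 979 ± 17.9 TPM in shCTL and 981 ± 18.3 TPM in shRor1 (SD, n = 3 each). SFN, the epithelial member, was the lowest at 77.5 ± 9.21 TPM in shCTL and had the largest difference (log2 fold change -0.10, adjusted p = 0.984 from limma).

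BMI1 (ENSG00000168283.9, chromosome 10 from 22610028 to 22620413, plus strand) had the largest difference of the 7 genes with TPM as deposited, an order that changed with other settings. With median ratio scaling SRC (-0.13) and CTTN (-0.12) differed more, with quantile normalization YWHAZ (0.16, against 0.155 for BMI1), and without the second shRor1 library ARHGEF2 (0.20). BMI1 had 91.89, 76.17 and 76.93 TPM in shCTL and 88.69, 96.79 and 89.30 TPM in shRor1. The first shCTL library lay within the shRor1 range, and the other two lay below all shRor1 libraries. The means were 81.7 ± 8.86 and 91.6 ± 4.51 TPM (SD, n = 3 each), or 112% of the control, with a log2 fold change of 0.17 (95% interval -0.05 to 0.38, unadjusted p = 0.108, adjusted p = 0.984 from limma). Without the first shCTL library it was 0.25 and the groups no longer overlapped (13% of all tested genes). The unadjusted p from limma was then 0.023 and the adjusted p 0.9999. With median ratio scaling it was 0.09.

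The read-through gene COMMD3-BMI1 shares 1000 exonic bases with BMI1 on the same strand, which is 22.8% of the exonic bases of BMI1 over all its transcripts, and reads in them had to be divided by estimate. It had 33.80, 37.48 and 32.45 TPM in shCTL and 38.02, 36.85 and 33.25 TPM in shRor1, with overlapping groups. The sum of both genes had a log2 fold change of 0.14 (adjusted p = 0.984 from limma). BMI1 made up 39.73%, 35.75% and 35.52% of the TPM of the 5 PCGF genes analysed here, PCGF2 not among them, in shCTL and 39.85%, 41.23% and 38.89% in shRor1. The first shCTL library lay within the shRor1 range and the others below it (exact permutation test, two-sided p = 0.2, 0.629 after adjustment over 11 shares). PCGF genes encode alternative subunits that take the place of BMI1 in the complex. Of 15 further genes of Polycomb repressive complex 1, 14 were found by identifier and tested, with 8 above 0 and 6 below, a median log2 fold change of 0.01 and 0 at an adjusted or unadjusted p of 0.05. The catalytic subunits RING1 and RNF2 had 34.3 ± 3.49 and 27.9 ± 0.80 TPM in shCTL (SD, n = 3 each). PHC2 had the highest level of the list, 90.5 ± 6.57 TPM in shCTL, and CBX7 both the lowest, 5.74 ± 0.92 TPM, and the largest difference (log2 fold change 0.21, adjusted p = 0.984 from limma).

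**Figure D3:**
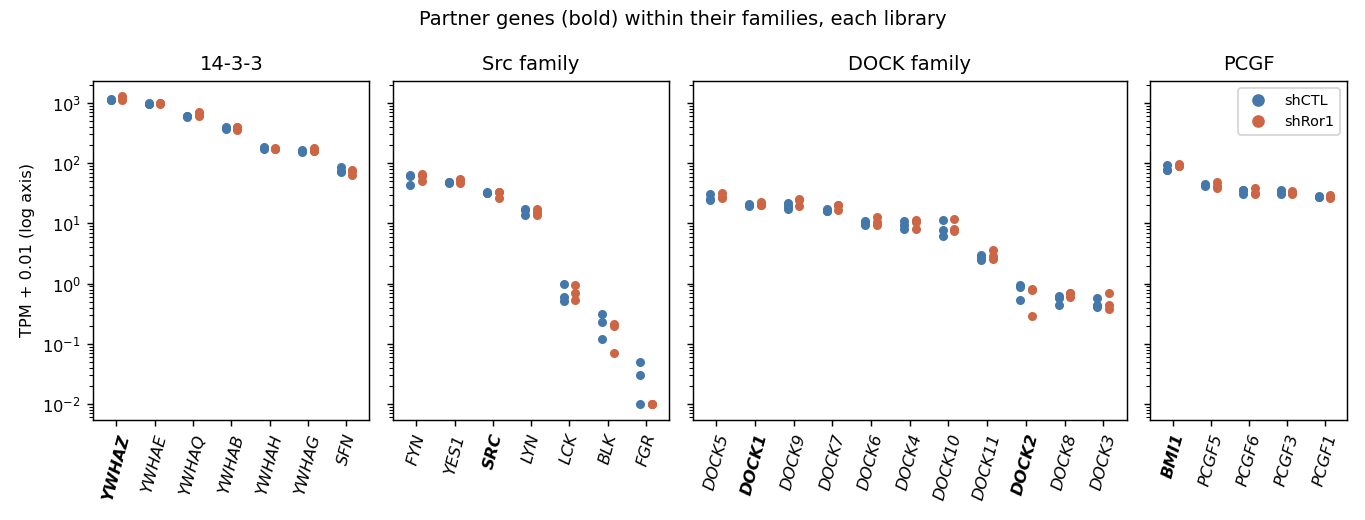
TPM + 0.01 (vertical log axis) of the partner genes (bold) and relatives of them in each shCTL (blue) and shRor1 (orange) library. YWHAZ leads the 14-3-3 genes and BMI1 the 5 PCGF genes analysed, SRC lies below FYN and YES1, and DOCK2 lies with DOCK3 and DOCK8 below 1 TPM.

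Over the 6 lists, 71 of 78 genes were tested, with 49 above 0, 22 below 0 and a median log2 fold change of 0.051, beside 0.054 over all genes tested. Of these 71, 0 had an adjusted p below 0.05 in limma, and 0 an unadjusted p below 0.05 (2.85% of all tested genes). The groups did not overlap for 4 of the 71 (WIPF1, ELMO2, CRKL and WASF3), where 7.78% of all tested genes did not, so that nothing is read from these 4.

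The 7 tested genes varied from library to library in different ways. The coefficient of variation within groups was lowest for YWHAZ (5.01%) and DOCK1 (5.97%) and highest for CTTN (15.6%), where the median of all tested genes was 12.2%. In the second shRor1 library CTTN was 0.30 and SRC 0.23 below the mean of the gene on the log2(TPM + 1) scale, as the deviations of -0.30 and -0.23 show, whereas YWHAZ and BMI1 were at 0.15 and 0.16 above it. In the third shRor1 library all 7 genes lay above their means, by a median of 0.08, and the median of all 16554 genes lay 0.08 above as well. The profiles of YWHAZ and BMI1 were the most alike among the 21 pairs, with a root mean square difference of 0.0800 after the mean of each gene was taken off, followed by CTTN and ARHGEF1 with 0.0833. CTTN and BMI1 were the least alike (0.259).

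**Figure D4:**
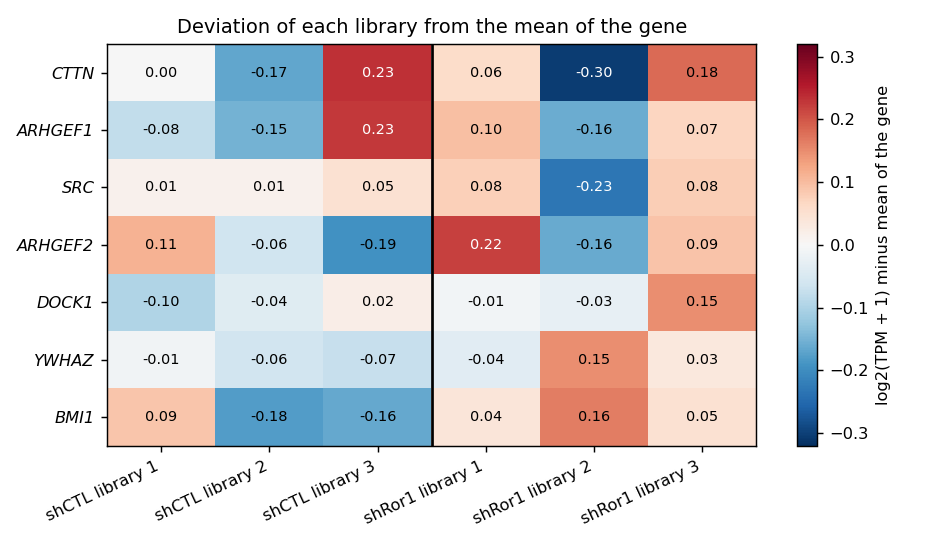
Deviation of log2(TPM + 1) from the mean of the gene (colour and printed value) for the 7 tested partner genes in the 6 libraries, with the groups divided by the black line. The second shRor1 library is lowest for CTTN and SRC and highest for YWHAZ and BMI1.

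By the same measure each gene was compared with all tested genes of at least its own mean level. DOCK1 was most like FKBP15 (0.0183) and RAB3GAP2 (0.0216) among 6619 genes, and ARHGEF1 was most like BAG6 (0.0309) and ARFGAP1 (0.0364) among 2196. SRC came closest to RAB7A (0.0367) and SNRNP200 (0.0377), and YWHAZ to ENO1 (0.0432) and TPT1 (0.0450). BMI1 came closest to OSTC (0.0495) and DNAJC10 (0.0520), CTTN to MPRIP (0.0611), and ARHGEF2 to SERF2 (0.0772) and GTF2H3 (0.0886). The median difference from the genes compared was between 0.125 and 0.220. With 6 libraries and many genes some profiles come close, so these are descriptions only.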

How the data were processed

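RNA of MDA-MB-231 cells with a control shRNA (3 libraries) or an shRNA against ROR1 (3 libraries) was sequenced as single reads. The authors aligned them with STAR, using GRCh37 and an Ensembl annotation, and estimated gene abundances with RSEM (1.2.5 in the submitters' processing notes, which also name CASAVA 1.8.2 and FastQC 0.10.0). The deposited values are TPM with 2 decimals for 57445 genes, although the table is called expected counts. A count model, as used by the authors, could therefore not be fitted, and TPM keep no depth.

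Testing was limited to 16554 genes that reached 1 TPM in 3 or more libraries. Their log2(TPM + 1) entered limma 3.58.1 (R 4.3.3), with a trend of variance on level, and p-values were adjusted across all of them (Benjamini-Hochberg, threshold 0.05). Fold changes on this scale understate low genes. The fit was tested on simulated data with independent noise for each gene. That simulation held no shift shared by a whole library and no true change as small as those measured for the members. Exact permutation tests were two-sided. Positions and exons came from GENCODE 44 on GRCh37. Symbols came from a separate list of gene names, which gave one to 55022 of 57445 identifiers. The number of unused sample columns was 0. The genes, the 6 lists and the naming rule (members, receptor and ligand, overlapping genes, extremes of each list, closest profiles) were chosen with earlier results of these data known. Alternatives were no filter, a mean of at least 5 TPM, a pseudocount of 0.1, quantile or median ratio scaling (over genes above 0 in every library), array weights, no trend, summed genes and each library left out. Some genes and 1 of the lists are not reported here by name.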

Additional observations from a re-analysis of the deposited data

How the results depend on the processing

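No paired analysis was possible because replicate numbers are missing from the column headers. Limma called 0 genes at an adjusted p below 0.05 under 7 alternatives, and between 0 and 1 when any single library was dropped. The 1 gene was RPL39P3, at a log2 fold change of -5.37 without the third shRor1 library. The number of members without overlap between groups was 0 with median ratio scaling and from 0 to 2 with a library left out: YWHAZ and BMI1 without the first shCTL library, DOCK1 without the third, YWHAZ without the first shRor1 library and SRC without the second. Between 13% and 29.3% of all tested genes did not overlap with a library left out. The cause was not tested.

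ARHGEF2, YWHAZ and BMI1 were above 0 under each alternative run, DOCK1 ran from 0.00055 to 0.11, and no member had an adjusted p below 0.525 under any of them. ARHGEF1 changed sign with quantile normalization (-0.026) and median ratio scaling (-0.076), and ran from -0.072 to 0.12 with a library left out. Over the same left-out libraries CTTN ran from -0.15 to 0.10 and SRC from -0.10 to 0.053. With either scaling 4 of 7 members were above 0. The share of all genes above 0 was then 50.5% and 44.6%, against 67% with TPM as deposited, and among genes with an unadjusted p below 0.05 the share that was higher became 53.9% and 50.3%, against 80.9%.

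Unadjusted p-values below 0.05, 472 in the report, numbered 1363 without a filter (of 39104 genes), 227 when a mean of 5 TPM was required (of 11145), 859 with array weights and 278 to 1720 with a library left out. Without a filter HCLS1 and DOCK2 had log2 fold changes of 0.15 and -0.14 (standard errors 0.18 and 0.18). The edgeR quasi-likelihood test planned for counts was not run. TPM hold no depth, the mapped reads listed in the paper were not used, and counting error in HCLS1 and DOCK2 was not separated from the spread between libraries.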
